A study of Mus musculus with 16 samples.

Results

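The 35 genes described here act in mitosis, and they were followed through every cell class of end-stage mouse mammary tumors of the WB1P and WB1P-Myc models. They were taken from a fixed list of mitotic genes, and all 35 were found among the 23467 genes of the count tables. WB1P mice carry the genotype WapCre;Brca1F/F;Trp53F/F, in which Cre under the Wap promoter of milk-producing mammary cells deletes the tumor suppressors Brca1 and Trp53. WB1P-Myc mice carry WapCre;Brca1F/F;Trp53F/F;Myc, the same alleles with an added Cre-switched Myc transgene at Col1a1, and neither model was treated. The ages of the mice are not given in the sources used here. Both are models of triple-negative breast cancer, and all groups share the loss of Brca1 and Trp53 in Cre-expressing cells. Stromal and immune cells of these tumors are taken not to express Wap and to keep both genes, which was not tested.

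Live single cells were sorted and captured by Drop-seq, in which each droplet pairs a cell with a barcoded bead and each captured mRNA with a unique molecular identifier (UMI). Each model was 1 cell suspension collected in 4 droplet fractions, so the fractions are technical replicates, and their spread says nothing about differences between mice. Each model was handled as a suspension of its own, so effects of handling and of model cannot be told apart. No test between groups was therefore possible, and no p-value is given. Intervals are 95% and exact, and they cover counting error only. Levels are UMIs of a gene or gene list per 10000 UMIs of the pooled cells of a class. Shares of cells were counted after each cell had been thinned to 600 UMIs, so that deep and shallow cells are comparable.

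After filtering, 1307 WB1P and 3491 WB1P-Myc cells were kept, with medians of 1724 and 2359 UMIs per cell. The tables held between 256985 and 1918672 UMIs per WB1P fraction and between 3814562 and 4960334 per WB1P-Myc fraction. WB1P fraction 1 stood apart, with 65 kept cells, 60 of them epithelial-like, at a median of 899 UMIs in the latter. Of the barcodes, 3 were listed in more than 1 table, and 1 of these was kept as a cell in more than 1. Of the targeted genes, Brca1 and Trp53 gave few UMIs. Counted over all 1000 barcodes of each fraction, kept or not, Brca1 was at 0.0470 per 10000 in WB1P and 0.118 in WB1P-Myc. Trp53 was at 0.209 and 0.236. Myc, counted in the same way, was at 0.732 in WB1P and 1.45 in WB1P-Myc. The libraries count mRNA 3′ ends, which may lie outside the deleted or added parts, so these values check neither genotype.

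Mitosis divides the replicated chromosomes between daughter cells. The kinase CDK1, bound to B-type cyclins, starts it, aurora and polo-like kinases build the spindle, and the spindle checkpoint holds back the anaphase-promoting complex, a ubiquitin ligase, until every kinetochore is attached. Most of these genes are transcribed late in the cell cycle and are low in resting cells, so their mRNA is a widely used mark of cycling cells. Their promoters typically hold CCAAT boxes, bound by the factor NF-Y, and many hold a cell cycle genes homology region (CHR), bound by repressor and activator complexes that switch with the cycle.

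The promoters of these genes are shown because the genes are measured together as a group, and their shared sequence features were not used to choose them. RefSeq windows of GRCm38.p6, the same assembly as the mm10 build of the files, were matched for 31 of the 35 genes, from 250 bases before the transcription start to 50 bases after it. Aurkb, Kif20a, Smc4 and Tpx2 had no entry. Windows of 6 well-known members are printed 5′ to 3′ on the strand of the gene: Ccnb1 at chr13:100786437-100786736 on the minus strand, Ccnb2 at chr9:70421505-70421804 on the minus strand, Cdc20 at chr4:118437294-118437593 on the minus strand, Plk1 at chr7:122159185-122159484 on the plus strand, Ube2c at chr2:164769679-164769978 on the plus strand and Top2a at chr11:99024140-99024439 on the minus strand. Capitals mark CCAAT or its reverse complement ATTGG, and TTTGAA, a CHR sequence, or its reverse complement TTCAAA. A run that reads as CCAAT on each strand, as in Ube2c, was counted once for each.
Ccnb1: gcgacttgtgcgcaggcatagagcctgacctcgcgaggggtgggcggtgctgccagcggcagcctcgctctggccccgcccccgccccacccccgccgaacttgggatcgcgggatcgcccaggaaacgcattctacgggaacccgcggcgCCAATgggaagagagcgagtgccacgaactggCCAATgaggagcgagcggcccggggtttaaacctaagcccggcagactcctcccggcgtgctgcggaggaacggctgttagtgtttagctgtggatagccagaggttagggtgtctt
Ccnb2: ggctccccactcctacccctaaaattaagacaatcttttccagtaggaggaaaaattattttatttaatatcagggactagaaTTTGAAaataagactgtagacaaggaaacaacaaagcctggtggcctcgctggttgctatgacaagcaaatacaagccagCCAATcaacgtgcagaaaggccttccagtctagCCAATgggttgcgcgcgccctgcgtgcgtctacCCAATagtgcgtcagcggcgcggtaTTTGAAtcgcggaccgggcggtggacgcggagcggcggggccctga
Cdc20: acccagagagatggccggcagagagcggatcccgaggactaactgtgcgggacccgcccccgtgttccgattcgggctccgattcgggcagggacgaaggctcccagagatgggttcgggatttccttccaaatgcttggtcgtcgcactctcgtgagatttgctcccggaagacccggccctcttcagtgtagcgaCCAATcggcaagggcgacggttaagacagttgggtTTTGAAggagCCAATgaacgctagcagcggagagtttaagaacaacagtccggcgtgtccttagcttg
Plk1: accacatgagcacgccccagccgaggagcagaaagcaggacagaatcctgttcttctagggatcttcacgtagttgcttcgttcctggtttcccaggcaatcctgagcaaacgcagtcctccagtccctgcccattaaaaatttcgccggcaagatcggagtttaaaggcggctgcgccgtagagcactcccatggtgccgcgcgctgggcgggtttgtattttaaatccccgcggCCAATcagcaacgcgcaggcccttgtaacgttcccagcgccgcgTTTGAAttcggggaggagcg
Ube2c: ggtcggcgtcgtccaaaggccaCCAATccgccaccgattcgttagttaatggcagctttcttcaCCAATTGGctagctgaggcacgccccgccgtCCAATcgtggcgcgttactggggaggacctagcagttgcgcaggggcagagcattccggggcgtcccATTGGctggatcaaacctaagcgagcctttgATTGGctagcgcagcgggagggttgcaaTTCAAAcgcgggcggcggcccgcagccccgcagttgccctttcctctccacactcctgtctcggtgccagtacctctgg
Top2a: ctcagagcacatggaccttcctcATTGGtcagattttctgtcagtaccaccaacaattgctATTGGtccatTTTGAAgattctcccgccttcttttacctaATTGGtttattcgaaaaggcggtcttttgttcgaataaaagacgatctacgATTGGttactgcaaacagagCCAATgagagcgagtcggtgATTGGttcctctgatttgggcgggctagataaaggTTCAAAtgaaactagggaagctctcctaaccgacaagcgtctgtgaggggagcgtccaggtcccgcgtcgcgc

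In the Ccnb2 window 3 CCAAT boxes and 2 CHR sequences were found, in the Cdc20 window 2 and 1, and in the Plk1 window 1 of each. The Top2a and Ube2c windows each held 6 CCAAT boxes. Of the 31 windows, 26 (83.9%) held CCAAT on either strand, against 37.9% of all 27025 promoter windows of the same length. TTTGAA on either strand was in 25 (80.6%), against 18.1% of all windows. Both motifs stood together in 23 windows (74.2%), against 7.12%, and at least 2 CCAAT boxes in 17 (54.8%), against 12.2%. Of 46 matched windows of other mitosis genes, 56.5% held CCAAT and 56.5% held TTTGAA. S phase genes differed in the second motif, which was in 4 of 29 windows (13.8%), while 55.2% held CCAAT. Ccnb1 had 2 CCAAT boxes and no TTTGAA in its window, and Birc5, Nusap1 and Tacc3 had neither motif. These are matches of letters and do not show binding.

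Cells were grouped without the mitosis and S phase genes of the lists used here, although other genes that follow the cell cycle stayed in. The 4798 cells formed 7 clusters, of which 6 could be named from markers. The epithelial-like class consisted of 657 WB1P and 807 WB1P-Myc cells, but of different clusters in the models. Cluster 4 held 656 of the WB1P cells and was led by Csn3, Lcn2 and Krt7, genes of luminal milk-producing cells. Cluster 3 held 797 of the WB1P-Myc cells and was led by Bex1, Gpx2 and Crabp1, with 7 epithelial markers such as Krt14 and Cdh1 raised but none among its top 10 genes. At a clustering resolution of 0.6, clusters named epithelial-like held only 365 and 10 WB1P-Myc cells. Another 266 WB1P-Myc cells, led by Slc38a4, Dlk1 and Crabp1, had 0 raised markers and stayed unnamed. The name epithelial-like may therefore not hold for every WB1P-Myc cell of the class. Summed epithelial markers were 127.9 per 10000 in WB1P and 40.7 in WB1P-Myc epithelial-like cells. Schwann-like cells, led by Sox10 and Mbp, numbered 1142, all from WB1P-Myc. A further 499 cells, 481 of them from WB1P-Myc, had a median of 1124 UMIs, were led by nuclear and mitochondrial RNAs such as Kcnq1ot1 and mt-Nd5, and stayed unnamed. Macrophage-like cells numbered 377 and 713, fibroblast-like cells 218 and 275, and endothelial-like cells 37 and 73 in WB1P and WB1P-Myc. Since clusters differ between the models, each model comparison of a class also compares these clusters.

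Epithelial-like cells carried more mitosis gene RNA than the macrophage-like, fibroblast-like and endothelial-like classes, each taken as a whole, in both models. Some of their subclusters in WB1P had intervals that include the epithelial-like level. Macrophage-like subcluster 3, with 11 cells, was at 30.9 per 10000 (21.9 to 42.5) and the pericyte-like subcluster at 25.3 (21.7 to 29.3). The former value rests on fraction 4, whose 7 cells gave 32 of the 38 UMIs. Its fractions 2 and 3, with 1 and 3 cells, were at 13.7 and 15.1. The latter value, from 46 cells, also varied by fraction, with 36.4, 9.37 and 34.1 in fractions 2 to 4. The 35 genes together made up 27.96 UMIs per 10000 (95% interval 27.23 to 28.70) in WB1P epithelial-like cells and 50.17 (49.50 to 50.86) in WB1P-Myc epithelial-like cells. Schwann-like cells of WB1P-Myc were at 26.89 (26.42 to 27.37), close to the WB1P epithelial-like level, and the unnamed WB1P-Myc cluster was at 42.82. Macrophage-like cells of WB1P were at 12.73 (11.89 to 13.62) and those of WB1P-Myc at 22.66 (21.87 to 23.48). Fibroblast-like cells were at 13.05 and 18.51, and endothelial-like cells at 13.69 (10.90 to 16.97) and 15.20 (13.44 to 17.12). The order of these last 3 classes in WB1P was within counting error.

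**Figure D1:**
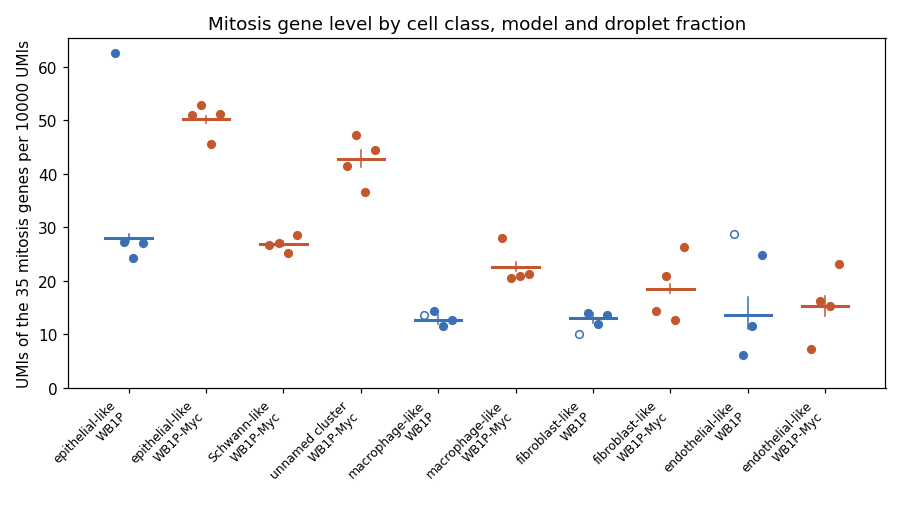
Summed level of the 35 mitosis genes (vertical axis, UMIs per 10000 UMIs) for each cell class and model. Horizontal bars are pooled levels with exact 95% Poisson intervals, filled points are droplet fractions with at least 10 cells and open points fractions with fewer. WB1P fraction 1 of the epithelial-like cells stands at 62.61, above the 4 WB1P-Myc fractions, while the other 3 WB1P fractions lie between 24.29 and 27.19.

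Droplet fractions differed most in the smaller classes and in WB1P fraction 1. In epithelial-like cells the 4 WB1P fractions were at 62.61, 27.19, 24.29 and 27.13 per 10000, and the 4 WB1P-Myc fractions at 50.94, 52.78, 45.58 and 51.19. The groups overlap through WB1P fraction 1, which also had epithelial markers at 217.9 per 10000, other mitosis genes at 49.06 against 29.91 to 34.15 in fractions 2 to 4, and S phase genes at 22.07 against 16.43 to 19.42. The part that its low depth and small cell number play in this was not tested. Without it, the WB1P epithelial-like level was 26.35. Schwann-like fractions lay between 25.23 and 28.60, all below the 4 WB1P-Myc epithelial-like fractions. Macrophage-like fractions lay between 11.47 and 14.38 in WB1P and between 20.57 and 28.02 in WB1P-Myc and did not overlap, although WB1P fraction 1 gave only 2 cells. Fibroblast-like fractions were at 10.10, 13.95, 11.83 and 13.62 in WB1P and 14.26, 20.95, 12.67 and 26.35 in WB1P-Myc, so WB1P-Myc fraction 3 lay within the WB1P range. Endothelial-like fractions ranged from 6.18 to 28.78 in WB1P, where the highest was 1 cell, and from 7.29 to 23.11 in WB1P-Myc. In WB1P, the 11 endothelial-like cells of fraction 4, at 24.75, gave 45 of the 83 mitosis gene UMIs, so the pooled level leans on them.

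Epithelial-like cells were 50.3% of WB1P cells and gave 76.7% of their mitosis gene UMIs. In WB1P-Myc, epithelial-like cells were 23.1% of cells and gave 50.9% of these UMIs, and Schwann-like cells were 32.7% and gave 30.3%. Over all cells the level was 21.97 per 10000 in WB1P and 34.53 in WB1P-Myc.

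Free RNA in the suspension adds UMIs of other cells to each barcode. WB1P barcodes with under 200 genes, whose content of cells is not known, held 14.9 mitosis gene UMIs per 10000 (13.5 to 16.3), no lower than WB1P macrophage-like, fibroblast-like or endothelial-like cells. Epithelial markers, a measure of foreign RNA, were at 7.91 per 10000 in WB1P macrophage-like and 5.29 in WB1P fibroblast-like cells, against 127.9 in epithelial-like cells. The part of free RNA in the mitosis gene UMIs of these classes was not tested. In WB1P-Myc only 3 barcodes had under 200 genes. Barcodes with at least 200 but under 450 genes were at 20.1 (18.8 to 21.4) for the 1034 of WB1P. The 316 of WB1P-Myc were at 32.0 (29.6 to 34.6). Both values lay above the macrophage-like, fibroblast-like and endothelial-like classes of the same model.

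Top2a and Smc4 gave the most UMIs of the 35 genes over all cells pooled, to which WB1P-Myc cells contribute most. Top2a encodes a topoisomerase that untangles sister chromatids, and Smc4, Smc2 and Ncapd2 encode parts of condensins, which compact chromosomes. Smc2 gave as many UMIs as Top2a in WB1P epithelial-like cells (412 each) and more than it in WB1P macrophage-like cells (90 against 78). Top2a and Smc4 together gave 18.5% of the mitosis gene UMIs in WB1P epithelial-like cells, 32.6% in WB1P-Myc epithelial-like cells and 28.7% in WB1P macrophage-like cells. All 35 genes had UMIs in epithelial-like, Schwann-like, macrophage-like and fibroblast-like cells. In the 37 WB1P endothelial-like cells 13 genes, Plk1, Cdc20 and Ccnb1 among them, were at 0, which at this depth does not show absence.

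**Figure D2:**
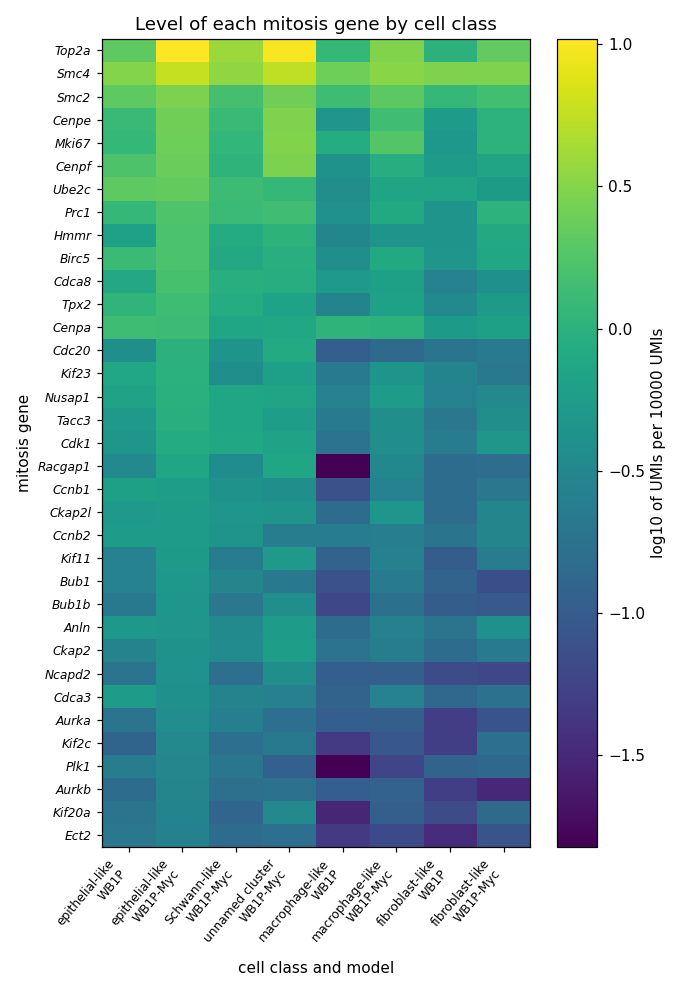
Level of each mitosis gene (rows, ordered by WB1P-Myc epithelial-like level) in 8 groups of cells (columns), as log10 of UMIs per 10000 UMIs. Top2a reaches 10.44 per 10000 in WB1P-Myc epithelial-like and 9.79 in unnamed WB1P-Myc cells against 2.04 in WB1P epithelial-like cells, and Smc4 is at 2.48 per 10000 or more in all 8 groups.

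Genes of mitotic entry were among the lower ones. Cdk1 was at 0.48 per 10000 in WB1P epithelial-like and 0.85 in WB1P-Myc epithelial-like cells, and Ccnb1, its cyclin partner, at 0.62 and 0.59. Plk1, a kinase of spindle assembly and chromosome separation, was at 0.24 and 0.31, but at 0.02 (1 UMI) and 0.06 (8 UMIs) in WB1P and WB1P-Myc macrophage-like cells. Cenpa, the centromere histone, was at 1.37 and 1.34 in WB1P and WB1P-Myc epithelial-like cells and 1.06 and 1.02 in macrophage-like cells.

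At 600 UMIs per cell, mitosis genes were found in most WB1P-Myc epithelial-like cells. The share was lower in WB1P epithelial-like cells and in the other named classes of each model, taken as whole classes. At least 1 of the 35 genes had a UMI in 49.3% (45.4 to 53.2) of WB1P epithelial-like and 78.4% (75.4 to 81.2) of WB1P-Myc epithelial-like cells. The share was 48.2% (45.2 to 51.1) in Schwann-like cells. In WB1P and WB1P-Myc it was 34.2% and 44.2% in macrophage-like cells and 29.4% and 37.8% in fibroblast-like cells. The few endothelial-like cells were at 35.1% (20.2 to 52.5) and 49.3% (37.4 to 61.3). At 1000 UMIs the share reached 56.9% in WB1P-Myc macrophage-like cells. Without thinning, the epithelial-like shares were 72.0% and 96.2%, at median depths of 1895 and 4222 UMIs. By fraction, the thinned share was 81.7%, 41.9%, 47.8% and 49.0% in WB1P epithelial-like cells and 76.2% to 83.2% in WB1P-Myc epithelial-like cells.

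A single UMI can be free RNA, so cells with UMIs of at least 3 different mitosis genes were also counted. They were 24.2% (21.0 to 27.7) of WB1P and 41.3% (37.8 to 44.7) of WB1P-Myc epithelial-like cells, 16.2% (14.1 to 18.5) of Schwann-like cells, 6.10% and 9.12% of macrophage-like cells and 6.88% and 9.09% of fibroblast-like cells. The macrophage-like and fibroblast-like intervals of the models overlapped. In WB1P epithelial-like cells the number of mitosis genes per cell fell off unevenly, with 45 cells at 2 genes and 53 at 3. In WB1P-Myc epithelial-like cells 128 cells had 2 genes and 129 had 3, while Schwann-like cells went from 109 at 2 to 66 at 3.

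**Figure D3:**
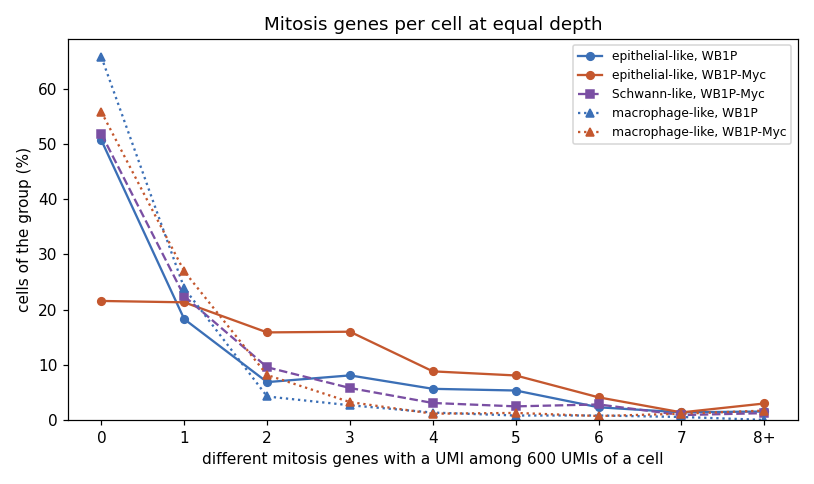
Share of cells (vertical axis, %) with UMIs of 0 to 8 or more different mitosis genes among 600 UMIs (horizontal axis) in epithelial-like, Schwann-like and macrophage-like cells of the models. No mitosis gene is seen in 50.7% of WB1P and 21.6% of WB1P-Myc epithelial-like cells.

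Cells with UMIs of at least 3 mitosis genes also carried other cell cycle RNA. An S phase gene UMI was found in 76.1% of such cells in WB1P epithelial-like, 78.7% in WB1P-Myc epithelial-like and 73.5% in Schwann-like cells. In cells with no mitosis gene UMI it was found in 39.6%, 61.5% and 35.6%. In Schwann-like cells the 58 other mitosis genes averaged 4.35 UMIs among 600 in cells with at least 3 mitosis genes and 0.904 in cells with none, and the cell cycle inhibitors 0.254 and 0.514. Markers of the class were lower in cells with at least 3 mitosis genes than in cells with none. The macrophage-like and fibroblast-like cells with at least 3 came from different subclusters, while other classes were not divided into subclusters. Of the 65 WB1P-Myc macrophage-like cells with at least 3, 21 were in subcluster 3, and of the 15 in WB1P fibroblast-like cells, 6 were in the pericyte-like subcluster and 1 in subcluster 1. In WB1P-Myc macrophage-like cells, macrophage markers were at 203.2 per 10000 in the 65 such cells and 367.7 in the 398 with none, with epithelial markers at 3.30 and 4.20 and Schwann markers at 4.01 and 3.05. In WB1P fibroblast-like cells, fibroblast markers were at 372.8 in the 15 such cells and 530.0 in those with none, with epithelial markers at 3.63 and 5.12. In Schwann-like cells, Schwann markers were at 36.5 and 49.3. In WB1P macrophage-like cells, T and NK cell markers were at 4.59 in the 23 such cells and 1.02 in those with none, and in WB1P-Myc at 1.62 and 1.35. In WB1P-Myc epithelial-like cells, epithelial markers were at 35.8 and 61.0, and in WB1P at 120.3 and 130.4.

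The mitosis genes tended to occur in the same cells. For each gene, the mean UMIs of the other 34 genes were compared between cells with and without a UMI of that gene. The median ratio over the 35 genes was 2.82 in WB1P epithelial-like cells, 1.66 in WB1P-Myc epithelial-like cells and 3.21 in Schwann-like cells. By fraction it ranged from 1.69 to 3.28, from 1.34 to 1.72 and from 2.80 to 3.80, with the lowest WB1P value in fraction 1, and at 1000 UMIs it was 3.15, 1.63 and 3.41. In WB1P epithelial-like cells Ube2c, the ubiquitin-conjugating enzyme of the anaphase-promoting complex, had a ratio of 3.60 and Prc1, which bundles the central spindle, 3.32, while Smc2 had 2.13. Top2a stood highest in Schwann-like cells, at 4.45, and at 2.07 in WB1P-Myc epithelial-like cells, where it was found in 35.8% of cells against 10.5% in WB1P. The share of cells with a gene enters this ratio, so levels of cycling in the classes cannot be read from it.

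Epithelial-like cells of the models were compared gene by gene, to ask whether the higher WB1P-Myc level was shared by the 35 genes. The sum was 1.79-fold higher in WB1P-Myc, a log2 ratio of 0.84 (0.80 to 0.89), and 0.93 without WB1P fraction 1. All 35 genes had at least 50 UMIs over both models, the minimum set for a comparison. Of these, 9 were at least 2-fold higher in WB1P-Myc and 0 at least 2-fold lower, while 14.6% of the 8996 genes compared were at least 2-fold higher and 16.4% at least 2-fold lower. The median log2 ratio was 0.63 over the 35 genes and -0.03 over all genes compared. The ratio was above 0 for 31 genes, with an interval above 0 for 26, and only Cdca3 had an interval below 0. In 5 genes, Cdk1, Smc4, Aurkb, Cdc20 and Top2a, all WB1P-Myc fractions lay above all WB1P fractions, as in 18.5% of all genes compared. In the MiSeq run 5 genes were at least 2-fold higher.

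**Figure D4:**
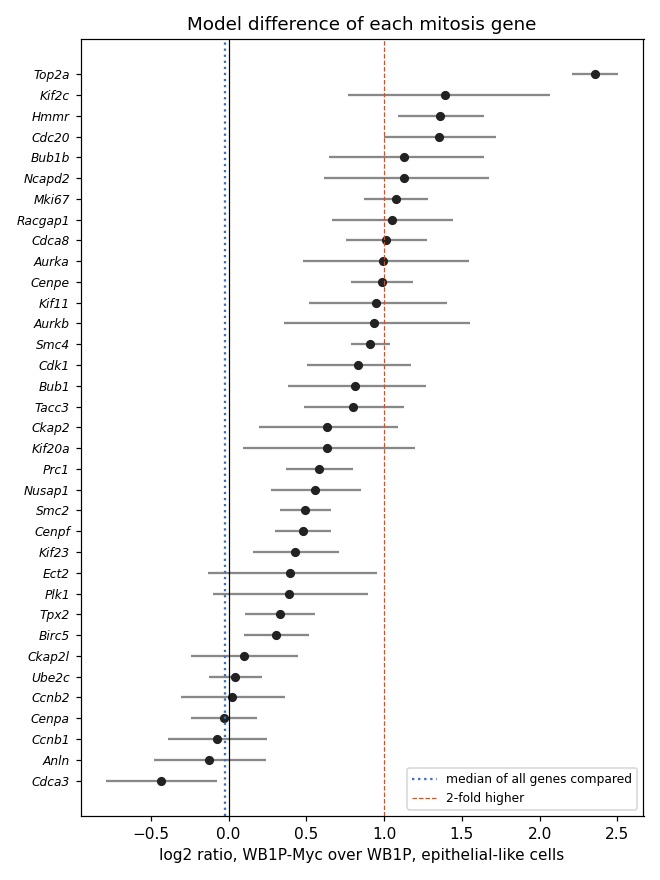
Log2 ratio of each mitosis gene in WB1P-Myc over WB1P epithelial-like cells (horizontal axis), with exact 95% intervals from UMI counts as bars. The dotted line is the median of all genes compared (-0.03) and the dashed line marks 2-fold, which 9 genes pass, with Top2a at 2.35 apart from the other 34.

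Top2a differed most. Its fractions were at 4.70, 2.00, 1.53 and 2.15 per 10000 in WB1P and at 10.23, 11.21, 9.45 and 10.93 in WB1P-Myc, so the groups did not overlap even with WB1P fraction 1. Pooled, 412 UMIs in WB1P stood against 4366 in WB1P-Myc, a 5.11-fold higher level and a log2 ratio of 2.35 (2.21 to 2.50). Without Top2a, the sum of the other 34 genes had a log2 ratio of 0.62 (0.57 to 0.66). Kif2c, a kinesin that takes down microtubules at kinetochores, had a log2 ratio of 1.39 (0.77 to 2.07), from 25 and 136 UMIs. Hmmr, a spindle protein, had 1.36 (1.09 to 1.64), but its WB1P fraction 1 was at 2.35 per 10000, above all WB1P-Myc fractions, which lay between 1.19 and 1.88. Cdc20, the activator of the anaphase-promoting complex, was at 0.90, 0.39, 0.39 and 0.33 in WB1P and at 0.96, 1.11, 0.90 and 1.03 in WB1P-Myc, with a log2 ratio of 1.35 (1.00 to 1.72).

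The most used proliferation marker, Mki67, which coats mitotic chromosomes, was at 4.59, 1.42, 0.70 and 0.86 per 10000 in the WB1P fractions and at 2.21, 2.62, 2.77 and 2.43 in WB1P-Myc. Fraction 1 of WB1P lay above and the other 3 below all WB1P-Myc fractions, and the pooled log2 ratio was 1.08 (0.87 to 1.29). Smc4 lay between 3.02 and 4.70 in WB1P and between 5.51 and 6.17 in WB1P-Myc, with a log2 ratio of 0.91 (0.79 to 1.04), and Smc2 had a ratio of 0.49 (0.33 to 0.66). Cdk1 reached 0.50 at most in a WB1P fraction and 0.75 at least in a WB1P-Myc fraction, with a log2 ratio of 0.84 (0.51 to 1.18).

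For Ccnb1, Ccnb2, Ube2c and Plk1 the interval of the ratio between models included 0. Ccnb1 had a log2 ratio of -0.07 (-0.39 to 0.25), Ccnb2 0.03 (-0.31 to 0.37), Ube2c 0.04 (-0.13 to 0.21) and Plk1 0.39 (-0.10 to 0.90). Without WB1P fraction 1, Plk1 was at 0.62 and Ccnb1 at 0.15. The lowest were Cdca3, at -0.43 (-0.79 to -0.07), which encodes a trigger of mitotic entry, Anln, at -0.13 (-0.48 to 0.24), which encodes a scaffold of the contractile ring, and Ccnb1. By role, chromosome structure genes had the highest summed log2 ratio, 1.37 (1.29 to 1.44). Top2a alone gave 4366 of their 9247 UMIs in WB1P-Myc and 412 of 1732 in WB1P, so this sum leans on 1 gene. Kinesins had 0.69, spindle genes 0.65 and chromosomal passenger genes 0.64. Entry kinases and cyclins had 0.37 and the checkpoint and anaphase-promoting complex genes 0.36, with intervals of 0.21 to 0.54 and 0.23 to 0.49.

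Neighboring lists of the cycle were also higher in WB1P-Myc epithelial-like cells, and cell cycle inhibitors were lower. The 58 other mitosis genes had a summed log2 ratio of 0.53, and 12 of 56 compared were at least 2-fold higher and 0 lower, against 14.6% and 16.4% of all genes compared, led by Spc24 (2.09), Espl1 (1.90) and Ccna2 (1.55). Their lowest ratios were those of Foxm1 (-0.79), a transcription factor of mitotic genes, Ndc80 (-0.74) and Mad2l1 (-0.49). The 38 S phase genes had 0.47, with 10 at least 2-fold higher and 0 lower, led by Cdc6 (2.47), Prim1 (1.87) and Cdt1 (1.81), which start DNA replication. Cdc6 lies within 1 Mb of Top2a, in the stretch of chromosome 11 described next. The lowest S phase ratios were those of Tk1 (-0.88), Atad2 (-0.22) and Slbp (-0.21), and Pcna was at -0.15 and Mcm6 at 0.24. The 14 inhibitors had -0.55 as a sum, with 7 of 11 compared at least 2-fold lower, against the same 16.4% of all genes. Cdkn2b, Cdkn1a and Cdkn1b, which encode brakes on cyclin-dependent kinases, had log2 ratios of -2.41, -2.29 and -1.82. Cdkn1c was the 1 inhibitor at least 2-fold higher, at 1.79, and Rbl1 (0.45) and Btg2 (0.32) followed it. Cdkn1a is a target of p53, and Trp53 itself gave 62 UMIs in WB1P-Myc and 16 in WB1P epithelial-like cells, and Brca1 44 and 11. Myc gave 859 and 137 UMIs, a log2 ratio of 1.60 (1.34 to 1.87). The sums of these lists shifted in the same directions between models in macrophage-like and fibroblast-like cells. The direction of the sums was therefore not particular to epithelial-like cells. Summed log2 ratios there were 0.32 and 0.31 for other mitosis genes and 0.27 and 0.57 for S phase genes. For inhibitors they were -0.85 (-0.94 to -0.76) and -0.40 (-0.53 to -0.28). Gene by gene the shifts were less even. Medians were 0.45 and 0.05 for other mitosis genes and 0.27 and 0.31 for S phase genes. Over all genes compared they were 0.13 and 0.06. Of the 12 other mitosis genes compared in fibroblast-like cells, 7 were above 0 and 5 below.

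The position of these genes was examined after their values had been seen, and the limits of the stretch were set from the same ratios, so its contrast with the rest of the chromosome is a description. Top2a lies on chromosome 11, and genes along a long stretch of that chromosome were also higher in WB1P-Myc epithelial-like cells. In the 36 Mb that follow position 66 Mb (mm10), 324 genes other than Top2a were compared, with a median log2 ratio of 1.31 and 201 (62.0%) at least 2-fold higher. In the rest of chromosome 11 the median was 0.12, and on other chromosomes -0.07. Within 1 Mb of Top2a, 25 genes had a median of 1.07, and 14 were at least 2-fold higher. Top2a lay 1.04 above the median of the stretch, and 39 genes of the stretch were at or above it. The same stretch had medians of 0.29 in macrophage-like and 0.14 in fibroblast-like cells.

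The level of the stretch differed between classes too. Its 743 genes summed to 266.7 UMIs per 10000 in WB1P and 638.4 in WB1P-Myc epithelial-like cells and to 522.5 in Schwann-like cells, with WB1P fractions at 257.6 to 273.7 and WB1P-Myc epithelial-like fractions at 609.9 to 657.5. In macrophage-like cells it was at 346.4 in WB1P and 369.7 in WB1P-Myc. In contrast to its Top2a level, WB1P fraction 1 was not apart here, at 260.2. DNA was not measured.

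**Figure D5:**
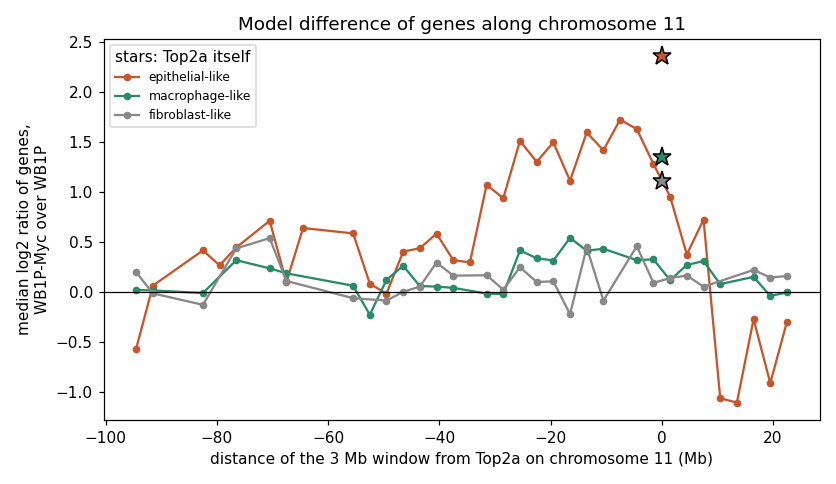
Median log2 ratio of genes in WB1P-Myc over WB1P (vertical axis) in 3 Mb windows along chromosome 11 with at least 5 genes compared, by distance from Top2a (horizontal axis, Mb), for 3 cell classes. Stars mark Top2a, at 2.35 in epithelial-like, 1.35 in macrophage-like and 1.11 in fibroblast-like cells, and the windows before Top2a are raised in epithelial-like cells.

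Of the other mitosis genes, Aurkb, the kinase of the chromosomal passenger complex, lies in the same stretch, with a log2 ratio of 0.94 and 32 neighbors at a median of 0.93. Birc5 and Hmmr lie elsewhere on chromosome 11, and the 14 neighbors of Birc5 had a median of -1.01 while Birc5 itself was at 0.31 (0.10 to 0.52). Cdca3 and Ncapd2 lie on chromosome 6 within a region whose 24 neighbors each had a median of -1.27. Cdca3 was at -0.43 and Ncapd2 at 1.13, both above their neighbors. Across the 28 mitosis genes with at least 5 neighbors, the log2 ratio of the gene and the median of its neighbors had a Pearson's r of 0.51 and a Spearman's rho of 0.46, and r was 0.43 without Top2a. This is a description across genes of the same libraries, and genes are not independent replicates.

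Macrophage-like cells also carried more mitosis gene RNA in WB1P-Myc, with a log2 ratio of the sum of 0.83 (0.72 to 0.94). Of the 35 genes, 19 had at least 50 UMIs, and of these 9 were at least 2-fold higher and 0 lower, against 5.67% and 2.91% of the 5294 genes compared. The median was 0.96 over the 19 genes and 0.13 over all genes. WB1P-Myc cells gave more UMIs, and genes such as Ckap2l (64 against 10) and Cdk1 (51 against 12) passed the minimum through them alone, so the count and the median describe the genes that passed. The highest were Ckap2l, a spindle protein, at 1.64 (0.67 to 2.77), Cenpe, a kinetochore motor, at 1.62 (1.05 to 2.22), and Top2a at 1.35 (1.00 to 1.72), while Nusap1, at 1.00, was the least of the 9. Top2a was at 0.00, 1.60, 0.97 and 1.07 per 10000 in the WB1P fractions and at 3.59, 2.74, 2.95 and 2.74 in WB1P-Myc, without overlap. The lowest were Cenpa at -0.05, Ccnb2 at 0.05 and Cdca8 at 0.28, and Smc4 and Smc2 were at 0.40 and 0.57. Mki67 had 1.06 and Cdk1 1.05 (0.12 to 2.09), with ranges of 0.70 to 1.43 and 0.67 to 1.65 when 1 fraction was left out. Ccnb1 gave 5 and 37, Cdc20 7 and 19 and Plk1 1 and 8 UMIs in WB1P and WB1P-Myc, under the minimum for a comparison.

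The macrophage-like difference changed with the cells and the run. Subcluster 1, led by the macrophage genes Ms4a7, Pf4 and Stab1, was at 7.85 per 10000 in WB1P and 19.22 in WB1P-Myc, a log2 ratio of 1.29. Subcluster 2, led by Mgl2 and MHC class II genes, was at 18.23 and 17.92, a ratio of -0.03. Subcluster 3, led by Trbc2, Mcm7, Stmn1 and Cdca8, held 11 WB1P and 67 WB1P-Myc cells. Cdca8 is 1 of the 35 genes, and genes outside the lists that follow the cell cycle stayed in the clustering. Their part in setting these cells apart was not tested. Pooled, subcluster 3 was the highest, at 30.94 (21.89 to 42.46) and 43.68 (40.82 to 46.69). In WB1P, 32 of its 38 mitosis gene UMIs came from the 7 cells of fraction 4, at 38.84 per 10000. In WB1P fractions 2 and 3, subcluster 3 had only 1 and 3 cells, at 13.68 (0.35 to 76.2) and 15.09 (4.90 to 35.2). Subcluster 2 was at 23.65 and 15.61 there, within these intervals, so the 2 subclusters cannot be ranked in these fractions. The marker rule named subcluster 3 for T and NK cells, from 9 raised markers. These markers were at 78.2 and macrophage markers at 18.7 per 10000 in WB1P, but at 10.1 and 108.1 in WB1P-Myc. The name was therefore not used here. In WB1P-Myc, subcluster 3 gave 865 of the 3084 mitosis gene UMIs of the class. Without subcluster 3 the ratio of the class was 0.62. In the MiSeq run, which lists mostly other barcodes (2 to 11 of 1000 shared per fraction), the class ratio was -0.33, and 0 genes were at least 2-fold higher. After scaling by TMM or DESeq2 size factors, which shift all macrophage-like ratios by -0.16 and -0.17, 3 instead of 9 genes were at least 2-fold higher.

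In fibroblast-like cells the difference was smaller, with a log2 ratio of the sum of 0.50 (0.38 to 0.63) and fractions that overlapped. Of 15 genes with at least 50 UMIs, 4 were at least 2-fold higher and 0 lower, against 2.77% and 1.96% of the 4436 genes compared, and their median was 0.73 against 0.06. Here too WB1P-Myc cells gave more UMIs, and genes such as Anln (39 against 11) passed mainly through them, so these values describe the genes that passed. The 4 were Prc1 at 1.22 (0.58 to 1.90), Top2a at 1.11 (0.68 to 1.55), Anln at 1.10 (0.11 to 2.21) and Mki67 at 1.06 (0.45 to 1.71). With 1 fraction left out, Prc1 ranged from 0.87 to 1.84, with the highest value without WB1P fraction 4, Mki67 from 0.69 to 1.74, with the highest value without WB1P fraction 2, and Top2a from 0.83 to 1.30. Ube2c was lowest at -0.35 (-0.97 to 0.29), followed by Smc4 at -0.01 (-0.28 to 0.28) and Cenpa at 0.23, and Smc2 had 0.30 (-0.13 to 0.73) and Cdk1 0.99 (0.10 to 1.97; 0.50 to 1.62 with 1 fraction left out). Ccnb1, Cdc20 and Plk1 gave 9 and 20, 11 and 21, and 7 and 13 UMIs in WB1P and WB1P-Myc, too few to compare. Without WB1P-Myc fraction 4, or in the MiSeq run, 0 genes were at least 2-fold higher. The summed level in the MiSeq run was still higher in WB1P-Myc, at 25.2 against 15.1 per 10000 in WB1P, where the main values were 18.51 and 13.05.

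Fibroblast-like cells differed more among themselves than between models. Subcluster 1, led by Sfrp4, Clec3b and Pi16, genes of adventitial fibroblasts, was at 4.18 (3.35 to 5.17) per 10000 in WB1P and 7.07 (6.21 to 8.02) in WB1P-Myc, the lowest level of any class or subcluster. At least 1 mitosis gene was seen in 18.4% and 28.8% of its cells, and at least 3 in 1.15% and 1.80%. Subcluster 2, led by Igfbp2 and Spp1, was at 16.19 and 24.05. The pericyte-like subcluster 3, led by Rgs5, was at 25.31 and 29.05 when pooled, near the level of Schwann-like cells. Its 46 WB1P cells varied widely by fraction, at 33.56 (1 cell), 36.39, 9.37 (17 cells) and 34.06. Its WB1P-Myc fractions lay between 21.81 and 34.70. Epithelial markers in the 3 subclusters lay between 2.45 and 7.15 per 10000, and the part of free RNA in their mitosis gene UMIs was not tested.

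Epithelial-like and macrophage-like cells of the same tumors were compared to see which mitosis genes separate them. In WB1P, all 27 genes with at least 50 UMIs were higher in epithelial-like cells, 20 of them at least 2-fold and 0 at least 2-fold lower, against 27.2% and 13.6% of the 6428 genes compared. The median was 1.49 over the 27 genes and 0.38 over all genes. The minimum is set on the sum of both classes, and epithelial-like cells gave more UMIs, so a gene low in macrophage-like cells can pass through the epithelial-like cells alone, as Racgap1, Ccnb1 and Cdc20 did. Such genes had to differ, and the counts and medians describe the genes that passed, not the list. Racgap1, a cytokinesis gene, gave 70 UMIs against 1, a log2 ratio of 4.52 (2.00 to 9.85), and Ccnb1 and Ube2c had 3.04 (1.78 to 4.68) and 2.46 (1.88 to 3.11). Smc4 at 0.34, Cenpa at 0.38 and Mki67 at 0.45 were lowest, Smc2 was at 0.59 and Top2a at 0.79, and Cdc20 and Cdk1 were at 1.89 and 1.39. In WB1P-Myc, all 35 genes were higher in epithelial-like cells, 24 of them at least 2-fold and 0 lower, against 26.3% and 21% of the 8909 genes compared, with medians of 1.16 and 0.21. There the highest were Cdc20 at 2.84 (2.18 to 3.59), Plk1 at 2.40 and Ect2, an activator of the contractile ring, at 2.02 (3.41 and 2.64 without fraction 1, from 8 and 9 macrophage-like UMIs in all), and the lowest Ckap2l at 0.24, Cenpa at 0.40 and Mki67 at 0.47. Top2a was at 1.80, Cdk1 at 1.18, Ccnb1 at 1.11, Smc4 at 0.85 and Smc2 at 0.52. By role, the summed ratio in WB1P ranged from 0.52 for chromosome structure to 2.31 for cytokinesis genes, the latter with 14 macrophage-like UMIs. In WB1P-Myc it ranged from 0.91 for centromere to 1.59 for checkpoint genes. Ccnb1 in WB1P, where macrophage-like cells gave 5 UMIs, was at 5.15 without fraction 2, and Cdc20, with 7, at 3.06 without fraction 3. Cdk1 in WB1P ranged from 0.99 to 1.99, without fractions 3 and 4, and Mki67 reached 1.01 without fraction 4. In the MiSeq run 8 genes in WB1P and 13 in WB1P-Myc were at least 2-fold higher, and at a clustering resolution of 0.6 15 in WB1P-Myc. The summed log2 ratio in WB1P-Myc was larger in the MiSeq run, at 1.81 against 1.15.

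Schwann-like and epithelial-like cells of WB1P-Myc came from the same droplet fractions. The sum was lower in Schwann-like cells, with a log2 ratio of -0.90 (-0.93 to -0.87). All 35 genes had ratios below 0, 32 with intervals below 0, and the median was -0.79 against 0.03 over all genes. At least 2-fold lower were 11 genes and 0 were at least 2-fold higher, against 7.85% and 12.2% of the 10030 genes compared. For 25 genes all 4 epithelial-like fractions lay above all 4 Schwann-like fractions, as for 16.2% of all genes. The lowest were Top2a at -1.43 (-1.51 to -1.35), Ncapd2 at -1.33 and Kif23, a motor of the central spindle, at -1.33. The highest were Cdk1 at -0.18 (-0.40 to 0.03), Ckap2l at -0.26 and Ckap2 at -0.31. Mki67, Smc2, Smc4, Plk1, Cdc20 and Ccnb1 were at -1.10, -0.91, -0.72, -0.65, -1.18 and -0.44. The chromosome 11 stretch that holds Top2a had a median of -0.28 in this comparison. The count of genes at least 2-fold lower was 2 in the MiSeq run, where the sum had a ratio of -0.46 and Mki67 one of 0.050, and 6 under a limit of 10% mitochondrial UMIs.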

How the data were processed

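Drop-seq was run on single cells from WB1P and WB1P-Myc mammary tumors. The authors made the deposited UMI counts with dropseq-tools, on the mm10 build per the labels, and the tables hold raw counts per gene for 1000 barcodes per fraction. The aligner was not given in the sources used here. HiSeq tables gave the main values, and MiSeq tables of the same fractions an alternative.

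Barcodes with 450 to 4000 genes and under 20% mitochondrial UMIs were kept, as the study did. Clusters (scanpy 1.11.5, Leiden resolution 0.3, 30 components, 20 neighbors, genes in at least 3 cells) were built without the mitosis and S phase lists and named from marker lists. Class counts were summed over cells. Log2 ratios were given for genes with at least 50 UMIs, and 2-fold was used as the limit. Doublets were kept, with Scrublet as an alternative. Scripts were tested on simulated data. Intervals are exact Poisson, Clopper-Pearson and conditional binomial. edgeR 4.0.16 (TMM) and DESeq2 1.42.0 served for scaling only. With 1 suspension per model no test was run. The study names 2 mice for each model in a legend, but no fraction is assigned to a mouse.

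The genes, lists and comparisons were chosen with earlier results of these data known. In each comparison, the text names the 3 genes with most UMIs, the 3 highest and 3 lowest ratios, and Top2a, Mki67, Cdk1, Ccnb1, Cdc20, Plk1 and Smc4; other mitosis genes may be named. For companion lists it names the 3 highest and lowest, and a few genes of wide interest. The position on chromosome 11 was examined after values had been seen.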

Additional observations from a re-analysis of the deposited data

Results flagged for a closer look

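In 4 of 18 sets of 4 fractions, a fraction lay far from the others. Chance gives this in about 1 in 20 sets, but 3 of the 4 are the same WB1P fraction and overlap in cells, so they do not count separately. WB1P epithelial-like fraction 1 was at 62.6 mitosis gene UMIs per 10000. Over all cells, WB1P fraction 1 was at 60.0 per 10000, with a mitosis gene in 80% of its cells at 600 UMIs. WB1P-Myc macrophage-like fraction 1 was at 28.0 per 10000, against 20.6 to 21.3 in the other fractions.

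Barcodes with over 4000 genes, which the comparisons leave out, also carried mitosis gene UMIs. The 40 WB1P barcodes were at 30.5 per 10000 (29.6 to 31.4) at a median of 29375 UMIs, against 22.0 in kept cells. The 134 WB1P-Myc barcodes were at 42.4 (41.8 to 43.0) at a median of 20438.5 UMIs, against 34.5 in kept cells. By fraction they ranged from 20.8 to 38.3 in WB1P and from 35.6 to 49.8 in WB1P-Myc.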

How the results depend on the processing

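No paired analysis was possible because no test was run: between models the fractions come from separate suspensions, and between classes of a model the shared fractions are technical and their values were compared without a test. Among 77 gene ratios of at least 2-fold, with 1138 values under alternatives, 1 changed sign, Mki67 in Schwann-like over epithelial-like cells, at 0.050 in the MiSeq run against -1.10. Over all gene ratios, 66 of 2515 values under alternatives had another sign, and all but that 1 were of genes under 2-fold, such as Ccnb1, Ccnb2, Cenpa and Ube2c between models in epithelial-like cells. Of the summed ratios, that of macrophage-like cells between models changed sign, to -0.33 in the MiSeq run and to -0.025 in subcluster 2.

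The MiSeq run moved most. Levels were 58.9 in WB1P-Myc epithelial-like, 42.7 in Schwann-like, 21.1 and 16.8 in WB1P and WB1P-Myc macrophage-like and 15.1 and 25.2 in fibroblast-like cells. Shares with a mitosis gene were 65.8% in Schwann-like, 43.3% and 34.3% in macrophage-like and 47.9% in WB1P-Myc fibroblast-like cells. Summed log2 ratios were -0.33 between models in macrophage-like cells, 1.81 for epithelial-like over macrophage-like cells in WB1P-Myc and -0.46 for Schwann-like over epithelial-like cells. Genes at least 2-fold higher numbered 5 between models in epithelial-like and 0 in macrophage-like and fibroblast-like cells, and 8 (with 1 lower) and 13 for epithelial-like over macrophage-like cells in WB1P and WB1P-Myc. For Schwann-like over epithelial-like cells, 2 genes were at least 2-fold lower. Its few UMIs leave fewer genes above the minimum.

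Without the upper gene limit, the Schwann-like level was 28.4, its ratio to epithelial-like cells -0.75, the S phase and inhibitor ratios of the models in epithelial-like cells 0.14 and -0.89, and the fibroblast-like count 2. With at least 200 genes, shares were 74.5% in WB1P-Myc epithelial-like and 41.0% in WB1P-Myc macrophage-like cells. Under 10% mitochondrial UMIs, the Schwann-like level was 28.4 and its share 53.1%, the WB1P macrophage-like share 38.0%, and 6 genes were lower in Schwann-like cells. At resolution 0.6, epithelial-like clusters held 365 and 10 WB1P-Myc cells in place of 807, while others of that model stayed unnamed, the WB1P-Myc epithelial-like level was 44.7, 1 gene was at least 2-fold lower than in WB1P, the S phase ratio was 0.21, 15 genes were higher over macrophage-like cells in WB1P-Myc, and the Schwann-like ratio was -0.74 with 6 genes lower. Without Scrublet doublets, the WB1P macrophage-like share was 30.4% and the inhibitor ratio -0.93.

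With equal weight per cell, levels were 23.2 in Schwann-like, 11.2 and 18.7 in macrophage-like and 11.9 in WB1P fibroblast-like cells, and the Schwann-like ratio was -1.03. Thinned to 600 UMIs, levels were 22.7 in Schwann-like and 11.1 and 18.5 in macrophage-like cells, and the Schwann-like ratio -1.07. Without Top2a, Smc4 and Smc2, levels were 31.0 in WB1P-Myc epithelial-like, 17.9 in Schwann-like, 7.72 and 14.4 in macrophage-like and 7.90 and 11.9 in fibroblast-like cells, which follows from leaving genes out. Shares with at least 2 genes were 31.1% and 57.1% in epithelial-like, 25.7% in Schwann-like, 10.3% and 17.3% in macrophage-like and 8.72% and 14.9% in fibroblast-like cells. At 1000 UMIs, shares were 86.1% in WB1P-Myc epithelial-like, 56.5% in Schwann-like, 42.2% and 56.9% in macrophage-like and 38.8% and 48.6% in fibroblast-like cells.

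With TMM or DESeq2 size factors, 3 and 3 genes were at least 2-fold higher in WB1P-Myc macrophage-like cells. Without a minimum of UMIs, 17 were higher there and 8 in fibroblast-like cells. Shares over all genes are given for the main settings only. Counts of mitosis genes under any alternative therefore have no such share beside them and show only how the count moved. Chosen after seeing the data, macrophage subclusters 1 and 2 alone gave ratios of 1.29 and -0.025. Of the summary values, leaving out 1 fraction moved the fibroblast-like count, which ranged from 0 to 6 and was 0 without WB1P-Myc fraction 4, and it moved 3 other values, of Ccnb1, Cdc20 and the chromosome 11 stretch in epithelial-like over macrophage-like cells of WB1P. For alternatives without a stated cause, the cause was not tested. Of the other summary values, 286 under other alternatives and 279 with 1 fraction left out stayed within the spread between fractions or, for counts, within 1.5 times. Counts of under 50 UMIs limit genes such as Plk1 and Aurkb outside epithelial-like cells.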
